A study of Mus musculus with 31 samples.

Results

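The Slc25 genes encode the mitochondrial carriers, the largest family of membrane proteins that move metabolites across the inner mitochondrial membrane. A gene was taken as a member when the platform gave its probe set the single symbol Slc25a followed by a number. Of 46 such symbols, 2 belong to transporters of the urea cycle and of fatty acid oxidation and were left out, which left 44 members among the 22180 genes measured. Each member had 1 probe set with a single symbol, so no choice between probe sets was needed. Members are described by the kind of substrate that their proteins carry. The label holds for the family with 2 known exceptions, since the protein of Slc25a17 sits in the peroxisome and that of Slc25a46 in the outer mitochondrial membrane.

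The data are liver arrays of 31 male C57BL/6 mice of 3 to 4 months, 1 array per sample. The design crosses the state at sampling, after a final 16 h fast or fed, with the fasting history. Fasted mice with 0 earlier fasts (8 arrays) were fed freely until the final fast. Fed mice with 0 earlier fasts (8 arrays) had no fast at all. Fasted mice with 2 earlier fasts (7 arrays) had been through a pair of 16 h fasts within 8 weeks before the final one. Fed mice with 2 earlier fasts (8 arrays) had the same pair of fasts and were then sampled fed. All were sampled in the morning, and the labels name no mutation or treatment other than fasting. The samples are whole liver, so fewer cells of a type and less RNA per cell cannot be told apart.

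Most carriers exchange a molecule of the mitochondrial matrix for one of the cytosol, and their direction of net transport is set by gradients. In liver they link the mitochondrion to gluconeogenesis, urea synthesis, fatty acid synthesis and cofactor supply. Fasting is known to turn liver from lipid synthesis to fatty acid oxidation and to glucose output from amino acids and lactate, and both programs move carbon and nitrogen through these proteins.

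Signals are log2 values after RMA, a method that corrects background and sets all arrays to 1 distribution, so a step of 1 is a doubling. Levels of different probe sets are not comparable. A pair of log2 changes stands for the response with 0 and then with 2 earlier fasts, each fasted minus fed. A gene was called when limma's Benjamini-Hochberg adjusted p over all 22180 genes was under 0.05. The deposited values ran from -0.0139 to 13.1, with array medians of 2.01 to 2.07. All 8 hepatocyte markers were bright, with array means of 11.5 to 11.8 over all groups. Of these 8, 3 were called higher and 1 lower in fasted mice with 0 earlier fasts, and 2 higher with 2. Of 7 sinusoidal endothelial markers, 1 was called higher with 0 earlier fasts, and 1 higher and 1 lower with 2. Lyve1 was called higher with both, at 0.93 and 1.06. Stab2, Clec4g, Pecam1, Kdr, Cdh5 and Oit3 went the other way, at -0.25 to -0.01 with 0 and -0.36 to -0.03 with 2 earlier fasts. Of those, only Cdh5 was called, with 2 earlier fasts. The 9 Kupffer cell markers, which mark liver macrophages, had array means of 4.92 to 6.08 in fasted and 5.35 to 6.60 in fed mice with 0 earlier fasts, and of 4.90 to 5.94 in fasted and 5.02 to 6.20 in fed mice with 2. Of these 9, 6 were called lower in fasted mice with 0 earlier fasts and 3 with 2, and of 7 stellate cell markers 3 were called lower with either history. The array of fasted replicate 4 with 0 earlier fasts stood apart, with an adipocyte marker mean of 3.64, against 1.46 to 1.86 on every other array. Without that array the counts of members called with 0 earlier fasts were unchanged, at 13 higher and 5 lower.

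With 0 earlier fasts, 13 of the 44 carriers were higher and 5 were lower in fasted than in fed livers. These 18 members are 40.9% of the family, against 12.5% of all genes. Of all genes, 6.25% were called higher and 6.23% lower. With 2 earlier fasts, 15 carriers were higher and 7 lower, 22 in all or 50% of the family, against 11.6% of all genes (6.06% higher and 5.52% lower). The median log2 change of the members was 0.11 with 0 and 0.13 with 2 earlier fasts, against -0.0036 and -0.00040 for all genes. Members are brighter than most genes. Of the 35 members with a mean above that of the median gene, 2.26, 51.4% were called with 0 and 62.9% with 2 earlier fasts, against 23.8% and 22.2% of the genes in the brighter part of the array. This split, also used for the gene lists below, does not match genes in brightness, so a difference in brightness may remain. The 9 dimmer members were not called in either response, namely Slc25a2, Slc25a14, Slc25a18, Slc25a29, Slc25a31, Slc25a41, Slc25a43, Slc25a53 and Slc25a54. The ranges of fasted and fed mice did not overlap in 10 members with 0 and 12 with 2 earlier fasts, against 4.28% and 4.37% of all genes.

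**Figure D1:**
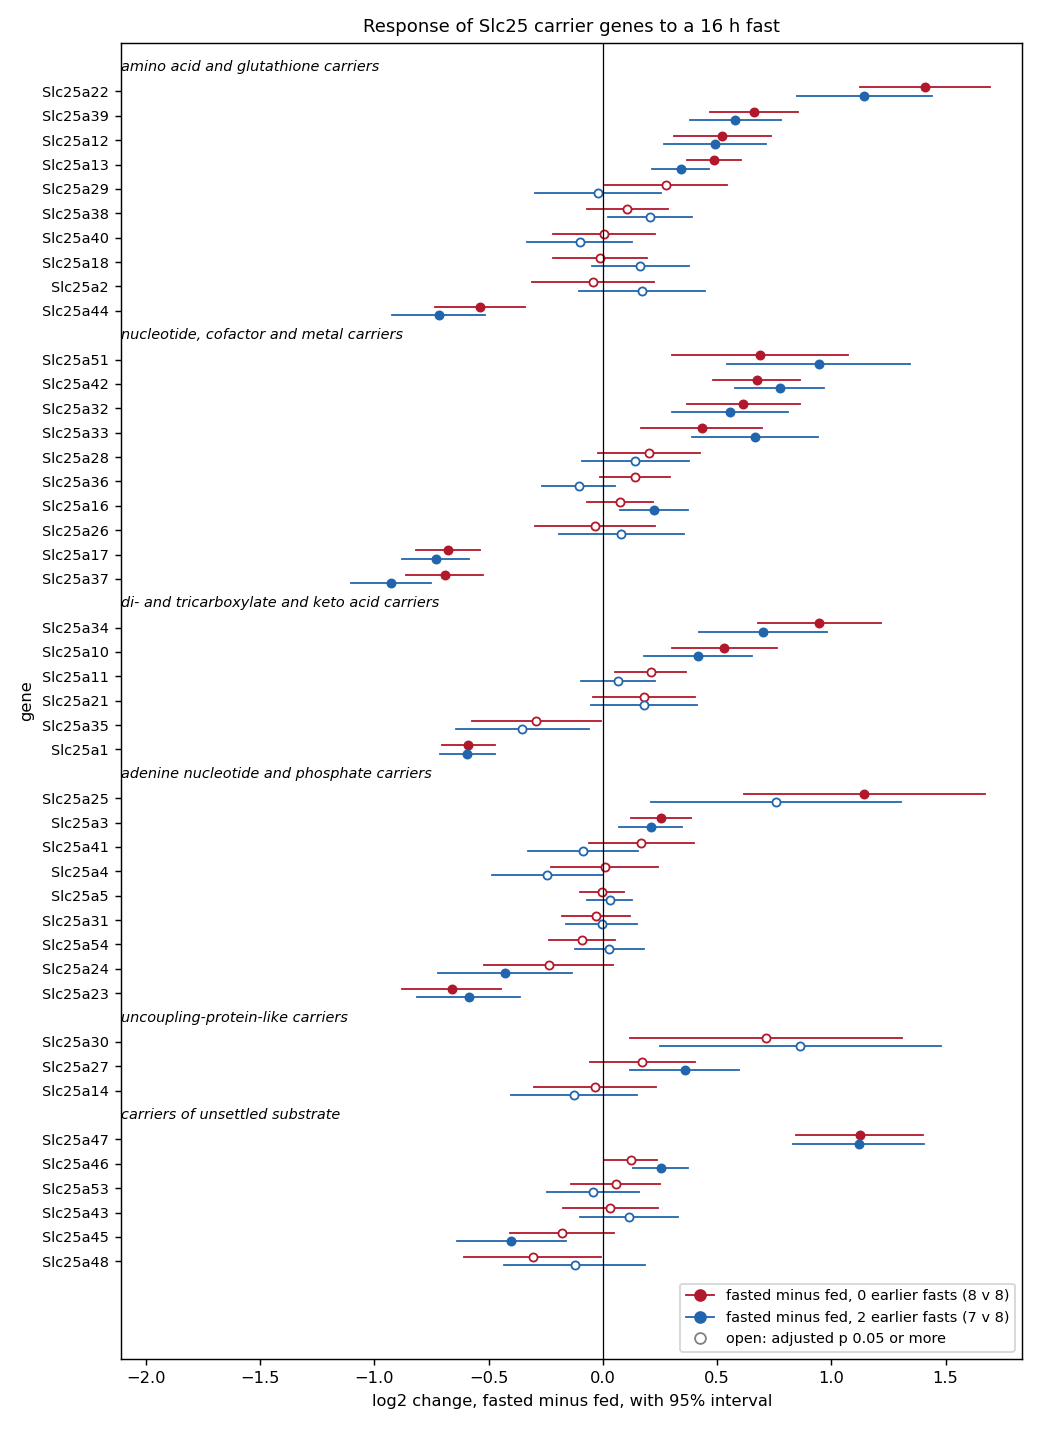
Log2 change of each of the 44 carrier genes, fasted minus fed, with its 95% interval, in mice with 0 earlier fasts (red, 8 against 8 arrays) and with 2 (blue, 7 against 8), by substrate group. Filled points have an adjusted p under 0.05, and with 2 earlier fasts Slc25a22 and Slc25a47 lie farthest right and Slc25a37 farthest left, at -0.93.

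Among carriers of amino acids and glutathione, 4 of 10 members were higher in fasted livers and 1 was lower, with either history. Those higher were the glutamate carrier Slc25a22, both aspartate-glutamate carriers Slc25a12 and Slc25a13, and the glutathione carrier Slc25a39, and the branched-chain amino acid carrier Slc25a44 was lower. The median log2 change of the group was 0.19 with 0 and 0.19 with 2 earlier fasts.

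Slc25a22 takes up glutamate with a proton. Signals of Slc25a22 in mice with 0 earlier fasts ran from 8.53 to 9.99 (median 9.17) in fasted mice, against 7.52 to 7.91 (median 7.73) in fed mice. Slc25a22 after 2 earlier fasts ran from 8.57 to 9.31 (median 9.04) in fasted mice, against 7.51 to 8.04 (median 7.88) in fed mice. Every fasted liver lay above every fed liver of the same history. Slc25a22 had a log2 change of 1.41 (SE 0.14, adjusted p = 1.76e-09), a 2.66-fold rise, with 0 earlier fasts. It was 1.14 (SE 0.14, adjusted p = 3.42e-07), or 2.21-fold, with 2. No other member had a larger change in either response. Its relative Slc25a18, the other glutamate carrier, was not called, at -0.01 and 0.16.

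Slc25a12 (aralar) and Slc25a13 (citrin) exchange matrix aspartate for cytosolic glutamate, a step of the malate-aspartate shuttle, and citrin is the main liver form. Signals of Slc25a13 in mice with 0 earlier fasts ran from 9.60 to 9.84 (median 9.71) in fasted mice, against 9.06 to 9.38 (median 9.22) in fed mice. Slc25a13 after 2 earlier fasts ran from 9.59 to 9.68 (median 9.65) in fasted mice, against 9.11 to 9.43 (median 9.36) in fed mice. The groups did not overlap in either history. Slc25a13 had a log2 change of 0.49 (SE 0.06, adjusted p = 1.03e-07) with 0 and 0.34 (SE 0.06, adjusted p = 0.000101) with 2 earlier fasts. Signals of Slc25a12 in mice with 0 earlier fasts ran from 6.59 to 7.30 (median 6.87) in fasted mice, against 6.15 to 6.90 (median 6.32) in fed mice. Slc25a12 after 2 earlier fasts ran from 6.52 to 7.17 (median 6.83) in fasted mice, against 6.12 to 6.62 (median 6.30) in fed mice. Fasted medians were above fed medians, with overlapping ranges in both histories, at log2 changes of 0.52 (SE 0.11, adjusted p = 0.000433) and 0.49 (SE 0.11, adjusted p = 0.00152).

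Slc25a39 brings glutathione, the main thiol antioxidant, into mitochondria. Signals of Slc25a39 in mice with 0 earlier fasts ran from 9.18 to 9.88 (median 9.51) in fasted mice, against 8.55 to 9.12 (median 8.78) in fed mice. Slc25a39 after 2 earlier fasts ran from 9.22 to 9.71 (median 9.49) in fasted mice, against 8.62 to 9.17 (median 8.89) in fed mice. No fasted liver overlapped a fed one of the same history. Slc25a39 had a log2 change of 0.66 (SE 0.09, adjusted p = 2.49e-06) with 0 and 0.58 (SE 0.10, adjusted p = 4.64e-05) with 2 earlier fasts. Its paralog Slc25a40 was not called, at 0.01 and -0.10.

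Slc25a44, described as a carrier of branched-chain amino acids in brown fat, moved the other way. Signals of Slc25a44 in mice with 0 earlier fasts ran from 6.21 to 6.83 (median 6.61) in fasted mice, against 6.79 to 7.34 (median 7.11) in fed mice. Slc25a44 after 2 earlier fasts ran from 6.26 to 6.75 (median 6.42) in fasted mice, against 6.96 to 7.48 (median 7.17) in fed mice. The ranges overlapped slightly with 0 earlier fasts and were apart with 2. Slc25a44 had a log2 change of -0.54 (SE 0.10, adjusted p = 0.000101) with 0 and -0.72 (SE 0.10, adjusted p = 1.95e-06) with 2 earlier fasts. The remaining members of the group were not called. The glycine carrier Slc25a38 stood at 0.11 with 0 and 0.21 with 2 earlier fasts. The basic amino acid carrier Slc25a29 stood at 0.28 and -0.02, and Slc25a2, a relative that carries ornithine, at -0.04 and 0.17.

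Among the 10 carriers of nucleotides, cofactors and metals, 4 were higher and 2 lower in fasted livers with 0 earlier fasts, and 5 were higher and 2 lower with 2. Carriers of coenzyme A, NAD, folate or FAD and pyrimidine nucleotides were higher, and the iron carrier Slc25a37 and the peroxisomal Slc25a17 were lower. The median log2 change was 0.17 with 0 and 0.18 with 2 earlier fasts.

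Slc25a42 carries coenzyme A, the acyl group carrier of fatty acid oxidation. Signals of Slc25a42 in mice with 0 earlier fasts ran from 7.53 to 8.05 (median 7.83) in fasted mice, against 6.81 to 7.49 (median 7.09) in fed mice. Slc25a42 after 2 earlier fasts ran from 7.74 to 8.16 (median 8.07) in fasted mice, against 6.94 to 7.41 (median 7.25) in fed mice. All fasted livers exceeded all fed livers of their history. Slc25a42 had a log2 change of 0.67 (SE 0.09, adjusted p = 1.38e-06) with 0 and 0.77 (SE 0.10, adjusted p = 2.3e-07) with 2 earlier fasts. Slc25a51, shown in human cells to bring NAD into mitochondria, spread more widely. Signals of Slc25a51 in mice with 0 earlier fasts ran from 5.82 to 7.60 (median 6.78) in fasted mice, against 5.50 to 6.50 (median 5.95) in fed mice. Slc25a51 after 2 earlier fasts ran from 6.21 to 7.45 (median 6.46) in fasted mice, against 5.55 to 5.93 (median 5.79) in fed mice. Groups overlapped with 0 earlier fasts and were separate with 2, at log2 changes of 0.69 (SE 0.19, adjusted p = 0.0116) and 0.94 (SE 0.20, adjusted p = 0.000762).

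Slc25a32 serves folate and FAD. Signals of Slc25a32 in mice with 0 earlier fasts ran from 6.00 to 6.79 (median 6.64) in fasted mice, against 5.62 to 6.23 (median 5.95) in fed mice. Slc25a32 after 2 earlier fasts ran from 6.17 to 6.94 (median 6.55) in fasted mice, against 5.59 to 6.19 (median 5.98) in fed mice. Fasted livers were higher with some overlap, at 0.62 (SE 0.12, adjusted p = 0.000339) and 0.56 (SE 0.13, adjusted p = 0.00186) on the log2 scale. Slc25a33, a carrier of pyrimidine nucleotides, had overlapping groups as well. Signals of Slc25a33 in mice with 0 earlier fasts ran from 5.74 to 6.73 (median 6.37) in fasted mice, against 5.76 to 6.08 (median 5.90) in fed mice. Slc25a33 after 2 earlier fasts ran from 6.37 to 6.73 (median 6.46) in fasted mice, against 5.21 to 6.38 (median 5.86) in fed mice. With 2 earlier fasts the highest fed liver lay just above the lowest fasted one, and the log2 change was 0.67 (SE 0.14, adjusted p = 0.000558). With 0 it was 0.43 (SE 0.13, adjusted p = 0.0227), which was no longer called without fasted replicate 2 (adjusted p = 0.0547) or fasted replicate 3 (adjusted p = 0.0615). Its paralog Slc25a36 was not called, at 0.14 and -0.11.

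Slc25a37 (mitoferrin-1) imports iron and is best known from red cell precursors. Signals of Slc25a37 in mice with 0 earlier fasts ran from 5.63 to 5.93 (median 5.79) in fasted mice, against 6.32 to 6.59 (median 6.49) in fed mice. Slc25a37 after 2 earlier fasts ran from 5.45 to 6.00 (median 5.69) in fasted mice, against 6.33 to 6.86 (median 6.71) in fed mice. The groups were apart in both histories, with fasted livers lower. Slc25a37 had a log2 change of -0.69 (SE 0.08, adjusted p = 9.91e-08), 1.62-fold lower, with 0 earlier fasts and -0.93 (SE 0.09, adjusted p = 4.57e-10), 1.90-fold lower, with 2. The 2 erythroid markers measured of 7 listed were dim, with means of 1.36 and 1.86, and neither was called. The broadly expressed mitoferrin Slc25a28 was not called, at 0.20 and 0.14.

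Slc25a17 exchanges coenzyme A, FAD and NAD across the peroxisomal membrane. Signals of Slc25a17 in mice with 0 earlier fasts ran from 7.19 to 7.61 (median 7.45) in fasted mice, against 7.96 to 8.26 (median 8.11) in fed mice. Slc25a17 after 2 earlier fasts ran from 7.12 to 7.56 (median 7.42) in fasted mice, against 7.92 to 8.27 (median 8.14) in fed mice. Fasted and fed livers did not overlap. Slc25a17 had a log2 change of -0.68 (SE 0.07, adjusted p = 2.86e-09) with 0 and -0.73 (SE 0.07, adjusted p = 1.49e-09) with 2 earlier fasts. Some Kupffer and stellate cell markers were also lower in fasted livers, with the counts given above, and their part in the lower carrier signals was not tested. Slc25a16, whose yeast relative is needed for coenzyme A in mitochondria, was called only with 2 earlier fasts, at 0.22 (SE 0.07, adjusted p = 0.0421), against 0.08 with 0. That call was lost when any 1 of 11 of its 15 arrays was left out, with adjusted p of 0.0575 to 0.106. The S-adenosylmethionine carrier Slc25a26 was not called, at -0.04 and 0.08.

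**Figure D2:**
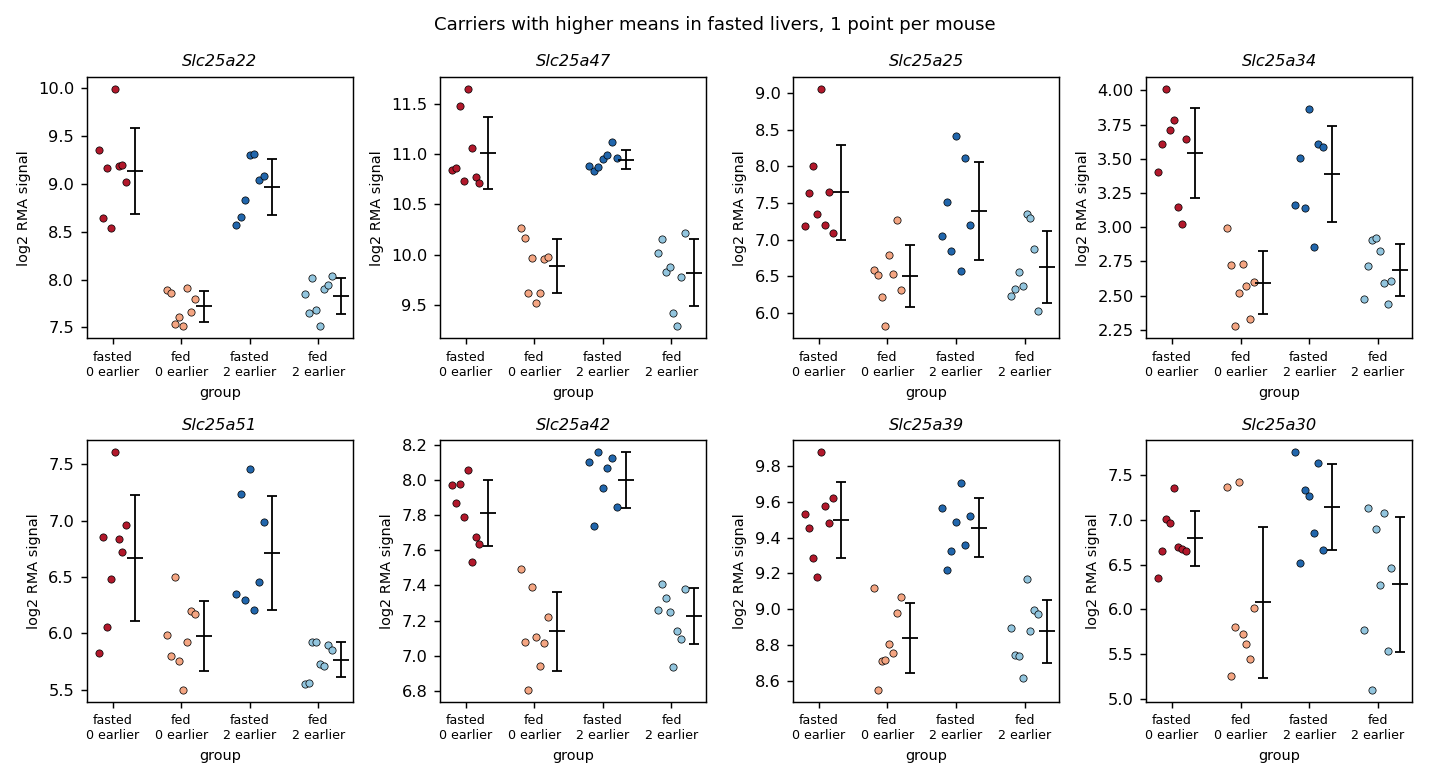
Log2 RMA signal of 8 carriers with higher means in fasted livers, 1 point per mouse, with the mean and SD of each group as a black bar. In Slc25a22, Slc25a47, Slc25a42 and Slc25a39 fasted and fed points do not overlap in either history, whereas Slc25a25 and Slc25a30 spread widely within groups, and Slc25a30 was not called.

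Carriers of di- and tricarboxylates and keto acids held 2 higher members and 1 lower member of 6, with either history. The dicarboxylate carrier Slc25a10 and its relative Slc25a34 were higher in fasted livers, and the citrate carrier Slc25a1 was lower. The median log2 change was 0.20 with 0 and 0.12 with 2 earlier fasts.

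Slc25a1 exports citrate, from which the cytosol makes acetyl-CoA for lipid synthesis. Signals of Slc25a1 in mice with 0 earlier fasts ran from 8.91 to 9.12 (median 9.04) in fasted mice, against 9.48 to 9.73 (median 9.63) in fed mice. Slc25a1 after 2 earlier fasts ran from 8.98 to 9.18 (median 9.13) in fasted mice, against 9.55 to 9.82 (median 9.68) in fed mice. The lowest fed liver was above the highest fasted liver in both histories. Slc25a1 had a log2 change of -0.59 (SE 0.06, adjusted p = 1.08e-09) with 0 and -0.59 (SE 0.06, adjusted p = 2.61e-09) with 2 earlier fasts. Acly, the enzyme that splits exported citrate, was lower too. Signals of Acly in mice with 0 earlier fasts ran from 7.04 to 7.62 (median 7.32) in fasted mice, against 9.10 to 10.14 (median 9.58) in fed mice. Acly after 2 earlier fasts ran from 6.83 to 7.38 (median 7.25) in fasted mice, against 9.07 to 10.34 (median 9.57) in fed mice. All fasted livers were below all fed ones, at log2 changes of -2.27 (SE 0.16, adjusted p = 4.37e-13) and -2.45 (SE 0.16, adjusted p = 2.62e-13).

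Slc25a10 exchanges malate or succinate for phosphate. Signals of Slc25a10 in mice with 0 earlier fasts ran from 6.27 to 6.84 (median 6.61) in fasted mice, against 5.70 to 6.31 (median 6.05) in fed mice. Slc25a10 after 2 earlier fasts ran from 5.77 to 6.79 (median 6.44) in fasted mice, against 5.75 to 6.25 (median 5.99) in fed mice. The ranges overlapped in both histories. Slc25a10 had a log2 change of 0.53 (SE 0.11, adjusted p = 0.000772) with 0 and 0.42 (SE 0.12, adjusted p = 0.0129) with 2 earlier fasts. Slc25a34, a relative whose own substrate is less settled, had the larger change. Signals of Slc25a34 in mice with 0 earlier fasts ran from 3.02 to 4.01 (median 3.63) in fasted mice, against 2.28 to 3.00 (median 2.59) in fed mice. Slc25a34 after 2 earlier fasts ran from 2.86 to 3.87 (median 3.51) in fasted mice, against 2.44 to 2.93 (median 2.66) in fed mice. Groups were separate with 0 earlier fasts and overlapped slightly with 2, at 0.95 (SE 0.13, adjusted p = 1.94e-06) and 0.70 (SE 0.14, adjusted p = 0.000374) on the log2 scale. The oxoglutarate-malate carrier Slc25a11 was not called, at 0.21 (adjusted p = 0.0714) with 0 and 0.07 with 2 earlier fasts. Slc25a21, which carries oxoadipate, stood at 0.18 and 0.18, and Slc25a35, the nearest relative of Slc25a34, at -0.29 and -0.35.

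**Figure D3:**
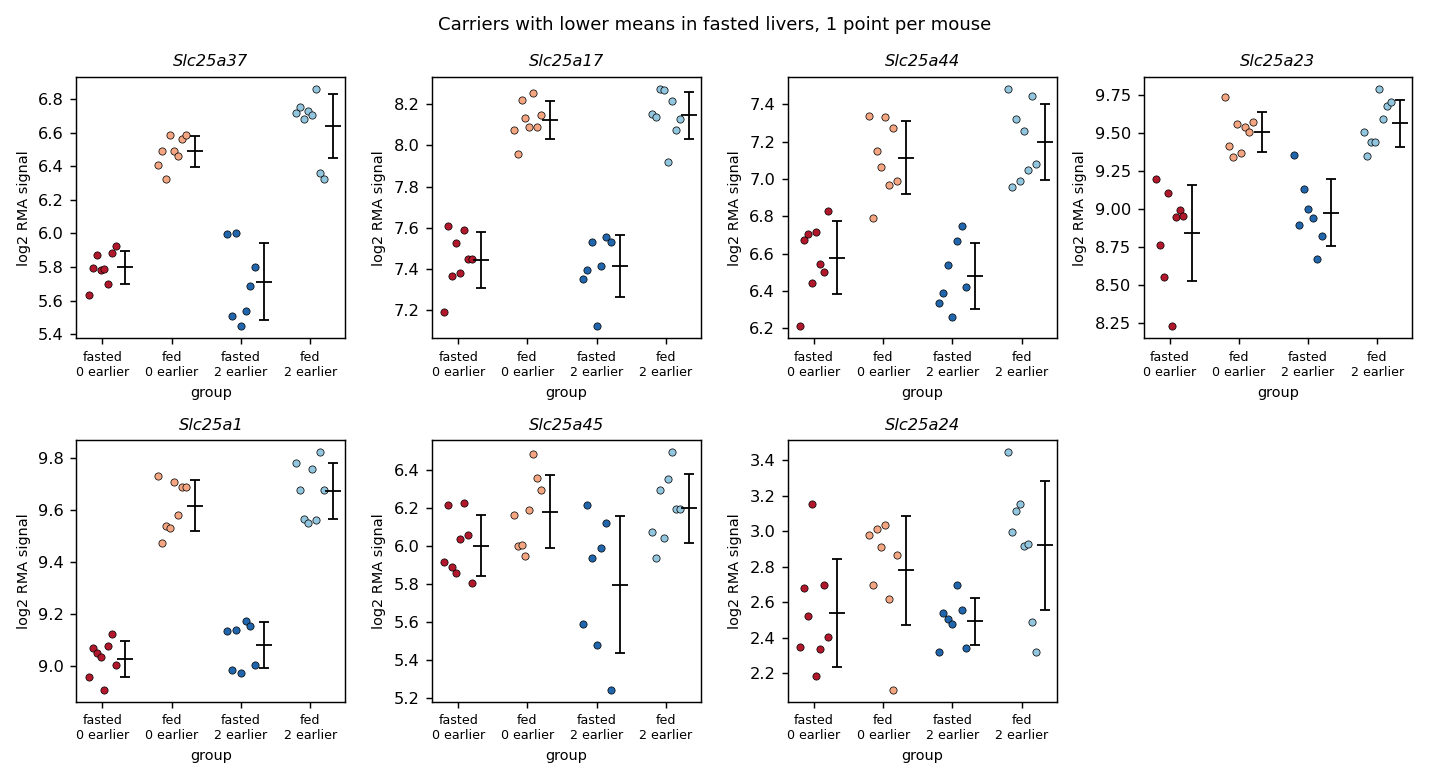
Log2 RMA signal of 7 carriers with lower means in fasted livers, 1 point per mouse, with the mean and SD of each group as a black bar. Fasted points lie below all fed points of their history in Slc25a37, Slc25a17 and Slc25a1, while those of Slc25a45 and Slc25a24 overlap with the fed points.

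Carriers of adenine nucleotides and phosphate moved in both directions. With 0 earlier fasts 2 of 9 were higher and 1 was lower in fasted livers, and with 2 earlier fasts 1 was higher and 2 were lower. The ADP/ATP translocases Slc25a4 and Slc25a5, which export the ATP made in mitochondria, were not called in either. Calls fell on the ATP-Mg/phosphate carriers, which adjust the adenine nucleotide pool of the matrix, and on the phosphate carrier. The median log2 change of the group was -0.0029 and -0.0045.

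Slc25a25 is a calcium-regulated ATP-Mg/phosphate carrier. Signals of Slc25a25 in mice with 0 earlier fasts ran from 7.09 to 9.05 (median 7.49) in fasted mice, against 5.82 to 7.26 (median 6.52) in fed mice. Slc25a25 after 2 earlier fasts ran from 6.58 to 8.41 (median 7.20) in fasted mice, against 6.03 to 7.35 (median 6.47) in fed mice. Groups overlapped in both histories, and only Slc25a30 had a larger spread within groups, with a pooled SD of 0.638 against 0.563 for Slc25a25. Slc25a25 had a log2 change of 1.14 (SE 0.26, adjusted p = 0.00175) with 0 earlier fasts, a 2.21-fold rise. Without the highest array, fasted replicate 5, it was 0.94 (adjusted p = 0.00524). With 2 earlier fasts it was 0.76 (SE 0.27, adjusted p = 0.0636), which missed the threshold and passed it when fasted replicate 3 or 5 or fed replicate 5 or 6 was left out. The difference between the 2 responses was -0.39 (95% interval -1.15 to 0.37), too wide to tell whether they differ.

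Slc25a23, another member of the same type, moved down. Signals of Slc25a23 in mice with 0 earlier fasts ran from 8.23 to 9.20 (median 8.95) in fasted mice, against 9.34 to 9.74 (median 9.52) in fed mice. Slc25a23 after 2 earlier fasts ran from 8.67 to 9.35 (median 8.94) in fasted mice, against 9.35 to 9.79 (median 9.55) in fed mice. Fasted livers were below fed ones, with no overlap with 0 earlier fasts and a slight one with 2. Slc25a23 had a log2 change of -0.66 (SE 0.11, adjusted p = 1.85e-05) with 0 and -0.59 (SE 0.11, adjusted p = 0.000212) with 2 earlier fasts. Slc25a24, the third of this type, had low signals. Signals of Slc25a24 in mice with 0 earlier fasts ran from 2.19 to 3.15 (median 2.46) in fasted mice, against 2.11 to 3.04 (median 2.89) in fed mice. Slc25a24 after 2 earlier fasts ran from 2.32 to 2.70 (median 2.51) in fasted mice, against 2.32 to 3.44 (median 2.96) in fed mice. Groups overlapped in both histories, and only the change with 2 earlier fasts was called, at -0.43 (SE 0.14, adjusted p = 0.0486), against -0.24 with 0. Leaving out any 1 of 12 arrays ended that call, with adjusted p of 0.0631 to 0.121.

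The phosphate carrier Slc25a3, which also supplies copper, was higher at 0.25 (SE 0.06, adjusted p = 0.00580) with 0 and 0.21 (SE 0.07, adjusted p = 0.0368) with 2 earlier fasts. The call with 2 was lost without 1 of 5 arrays, with adjusted p of 0.0567 to 0.115. Slc25a5 had the smallest spread of all members, a pooled SD of 0.0584, and changed by -0.00 and 0.03. Slc25a4 stood at 0.01 and -0.24. These translocases are close in sequence, and signal shared between their probe sets was not tested. The dim members of the group were not called, namely Slc25a31, the germ cell translocase, at -0.03 and -0.00, Slc25a41 at 0.17 and -0.09, and Slc25a54 at -0.09 and 0.03.

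Carriers of unsettled substrate included Slc25a47, which was higher in every fasted liver than in any fed liver of its history. Of 6 members, 1 was higher with 0 earlier fasts, and 2 were higher and 1 was lower with 2, at median log2 changes of 0.044 and 0.035. Slc25a47 is a carrier known for its expression in liver. Signals of Slc25a47 in mice with 0 earlier fasts ran from 10.71 to 11.65 (median 10.85) in fasted mice, against 9.52 to 10.27 (median 9.96) in fed mice. Slc25a47 after 2 earlier fasts ran from 10.83 to 11.11 (median 10.95) in fasted mice, against 9.29 to 10.22 (median 9.85) in fed mice. Fasted livers exceeded fed livers without overlap. Slc25a47 had a log2 change of 1.12 (SE 0.14, adjusted p = 1.2e-07) with 0 and 1.12 (SE 0.14, adjusted p = 3.11e-07) with 2 earlier fasts, 2.18-fold and 2.17-fold.

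Slc25a45 was called only with 2 earlier fasts. Signals of Slc25a45 in mice with 0 earlier fasts ran from 5.80 to 6.22 (median 5.98) in fasted mice, against 5.95 to 6.48 (median 6.17) in fed mice. Slc25a45 after 2 earlier fasts ran from 5.24 to 6.22 (median 5.94) in fasted mice, against 5.94 to 6.49 (median 6.19) in fed mice. The ranges overlapped, with log2 changes of -0.18 with 0 and -0.40 (SE 0.12, adjusted p = 0.0182) with 2 earlier fasts. Without fasted replicate 4 or 7 the call was lost (adjusted p = 0.0570 and 0.0690). Slc25a46, which acts in the shape and lipid supply of mitochondria, was also called only with 2, at 0.25 (SE 0.06, adjusted p = 0.00281), against 0.12 with 0. Slc25a48 stood at -0.31 and -0.12, Slc25a43 at 0.03 and 0.11, and Slc25a53 at 0.06 and -0.04, none of them called.

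Of the 3 relatives of the uncoupling proteins, Slc25a27 was called, and only with 2 earlier fasts. Signals of Slc25a27 in mice with 0 earlier fasts ran from 2.78 to 3.25 (median 3.12) in fasted mice, against 2.61 to 3.32 (median 2.86) in fed mice. Slc25a27 after 2 earlier fasts ran from 2.77 to 3.65 (median 3.11) in fasted mice, against 2.19 to 3.00 (median 2.83) in fed mice. The groups overlapped, with log2 changes of 0.17 with 0 and 0.36 (SE 0.12, adjusted p = 0.0401) with 2 earlier fasts, and the call was lost without any 1 of 8 arrays (adjusted p of 0.0525 to 0.130). Slc25a30 had large mean differences that were not called, and its values are given because of its wide spread, a choice made after they were seen. Signals of Slc25a30 in mice with 0 earlier fasts ran from 6.35 to 7.36 (median 6.69) in fasted mice, against 5.25 to 7.42 (median 5.77) in fed mice. Slc25a30 after 2 earlier fasts ran from 6.52 to 7.76 (median 7.26) in fasted mice, against 5.10 to 7.13 (median 6.37) in fed mice. The fed range covered the whole fasted range with 0 earlier fasts and part of it with 2, and the log2 change was 0.71 (SE 0.29, adjusted p = 0.121) with 0 and 0.86 (SE 0.30, adjusted p = 0.0604) with 2 earlier fasts. Slc25a14 stood at -0.03 and -0.13.

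Promoters of 34 of the 44 members, 43 in all, were found in RefSeq (GRCm38.p6), each from 250 bases before the start site to 50 after it. Both strands were searched for 7 motifs of factors known in fasting or lipid metabolism. The promoters of Slc25a25, Slc25a47, Slc25a34 and Slc25a1 are shown as examples that hold a motif, chosen after their values were seen. The first 3 had the largest rises with 0 earlier fasts after Slc25a22, and Slc25a1, the citrate step, was lower. Slc25a22 is not shown because none of its listed promoters held any of the 7 motifs. Capitals mark the motif found, and each sequence is given 5′ to 3′ on the strand of its gene.
Slc25a25, chr2:32424017-32424316, minus strand, 1 of 3 listed starts: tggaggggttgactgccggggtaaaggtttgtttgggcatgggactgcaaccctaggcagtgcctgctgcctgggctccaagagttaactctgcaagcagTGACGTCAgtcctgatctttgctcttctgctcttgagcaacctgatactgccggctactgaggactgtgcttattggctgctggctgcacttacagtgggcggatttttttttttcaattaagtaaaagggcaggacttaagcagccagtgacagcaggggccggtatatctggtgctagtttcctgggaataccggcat
Slc25a47, chr12:108850879-108851178, plus strand: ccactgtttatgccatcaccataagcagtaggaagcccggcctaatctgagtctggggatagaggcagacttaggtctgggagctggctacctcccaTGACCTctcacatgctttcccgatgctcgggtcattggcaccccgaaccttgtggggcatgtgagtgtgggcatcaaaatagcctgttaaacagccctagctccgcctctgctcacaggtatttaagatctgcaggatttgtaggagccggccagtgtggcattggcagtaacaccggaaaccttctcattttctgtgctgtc
Slc25a34, chr4:141623785-141624084, minus strand: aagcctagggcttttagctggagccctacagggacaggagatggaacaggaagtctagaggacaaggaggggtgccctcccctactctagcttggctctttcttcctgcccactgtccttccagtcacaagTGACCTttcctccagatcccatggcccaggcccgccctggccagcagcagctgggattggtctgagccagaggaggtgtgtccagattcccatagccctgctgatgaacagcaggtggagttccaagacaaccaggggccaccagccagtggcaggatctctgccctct
Slc25a1, chr16:17928170-17928469, minus strand: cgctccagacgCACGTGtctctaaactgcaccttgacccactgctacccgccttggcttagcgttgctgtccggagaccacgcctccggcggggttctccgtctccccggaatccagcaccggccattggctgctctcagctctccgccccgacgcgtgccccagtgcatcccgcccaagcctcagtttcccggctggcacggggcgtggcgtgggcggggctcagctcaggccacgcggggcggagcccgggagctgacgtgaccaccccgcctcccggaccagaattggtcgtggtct
The capitals of Slc25a25 are TGACGTCA, the cAMP response element, whose first base lies at -150 from the start site. Among members Slc25a36 also held it, so 2 of the 43 member promoters did, against 1.79% of the 32851 promoters in the table. In Slc25a47 and Slc25a34 the capitals are the nuclear receptor half-site AGGTCA or its reverse complement TGACCT, with first bases at -153 and -119. The half-site stood in 16.3% of all promoters and in 4 of the 43 member promoters, those of Slc25a34, Slc25a39, Slc25a45 and Slc25a47. In Slc25a1 they are the E-box CACGTG, at -239, found in 7.15% of all promoters. It stood in 7 of the 43 member promoters, in 6 members (Slc25a1, Slc25a13, Slc25a14, Slc25a31, Slc25a33 and Slc25a36). The glucocorticoid receptor letters ACANNNTGT, in 6.85% of all promoters, stood in 4 of the 43 member promoters (Slc25a4, Slc25a21, Slc25a24 and Slc25a48). The sterol regulatory letters TCACNCCAC, in 1.24% of all promoters, stood in 1 of the 43, that of Slc25a18. The forkhead letters GTAAACA (3.65%) and the direct repeat of the half-site AGGTCA with 1 base between its copies (0.0396%), which contains the half-site, stood in no member promoter.

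The responses with 0 and with 2 earlier fasts come from separate arrays, but each gene's spread was estimated from all 31 arrays together. The calls in the 2 responses are therefore not independent. Of the 44 members, 17 were called in both in the same direction, 12 higher and 5 lower, and 0 in opposite directions. Those 17 are 94.4% of the members called with 0 and 77.3% of those called with 2 earlier fasts, against 66.1% and 71.2% of all called genes. Slc25a25 was called only with 0, and Slc25a16, Slc25a24, Slc25a27, Slc25a45 and Slc25a46 only with 2. The interaction, the test of the difference between the 2 responses, was not called for any of these 6. Across the members the 2 log2 changes had Pearson's r = 0.94 and Spearman's rho = 0.90, against r = 0.85 across all genes, as a description over genes that share arrays. They had the same sign in 33 of 44 members, against 65.8% of all genes.

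History itself left no carrier called. In fasted mice, in fed mice and in the interaction, which asks whether the response to the final fast differs between histories, 0 of 44 members and 0% of all genes passed in limma. At an unadjusted p under 0.05 there were 2 members in fasted mice, 1 in fed mice and 1 in the interaction, against 4.49%, 5.61% and 4.61% of all genes. The 3 members of smallest p in fasted mice were Slc25a46 (0.13, 95% interval 0.01 to 0.26), Slc25a4 (-0.25, 95% interval -0.49 to -0.01) and Slc25a42 (0.19, 95% interval -0.01 to 0.38), as 2 minus 0 earlier fasts on the log2 scale. In fed mice they were Slc25a16 (-0.15, 95% interval -0.29 to -0.00), Slc25a37 (0.15, 95% interval -0.02 to 0.32) and Slc25a14 (0.23, 95% interval -0.04 to 0.50). For the interaction they were Slc25a36 (-0.25, 95% interval -0.47 to -0.03), Slc25a37 (-0.24, 95% interval -0.48 to 0.01) and Slc25a13 (-0.15, 95% interval -0.32 to 0.03). The largest size of any member's difference was 0.35 in fasted mice and 0.23 in fed mice. All 44 intervals lay within 1 log2 unit of 0 in both states, and 42 did in the interaction.

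**Figure D4:**
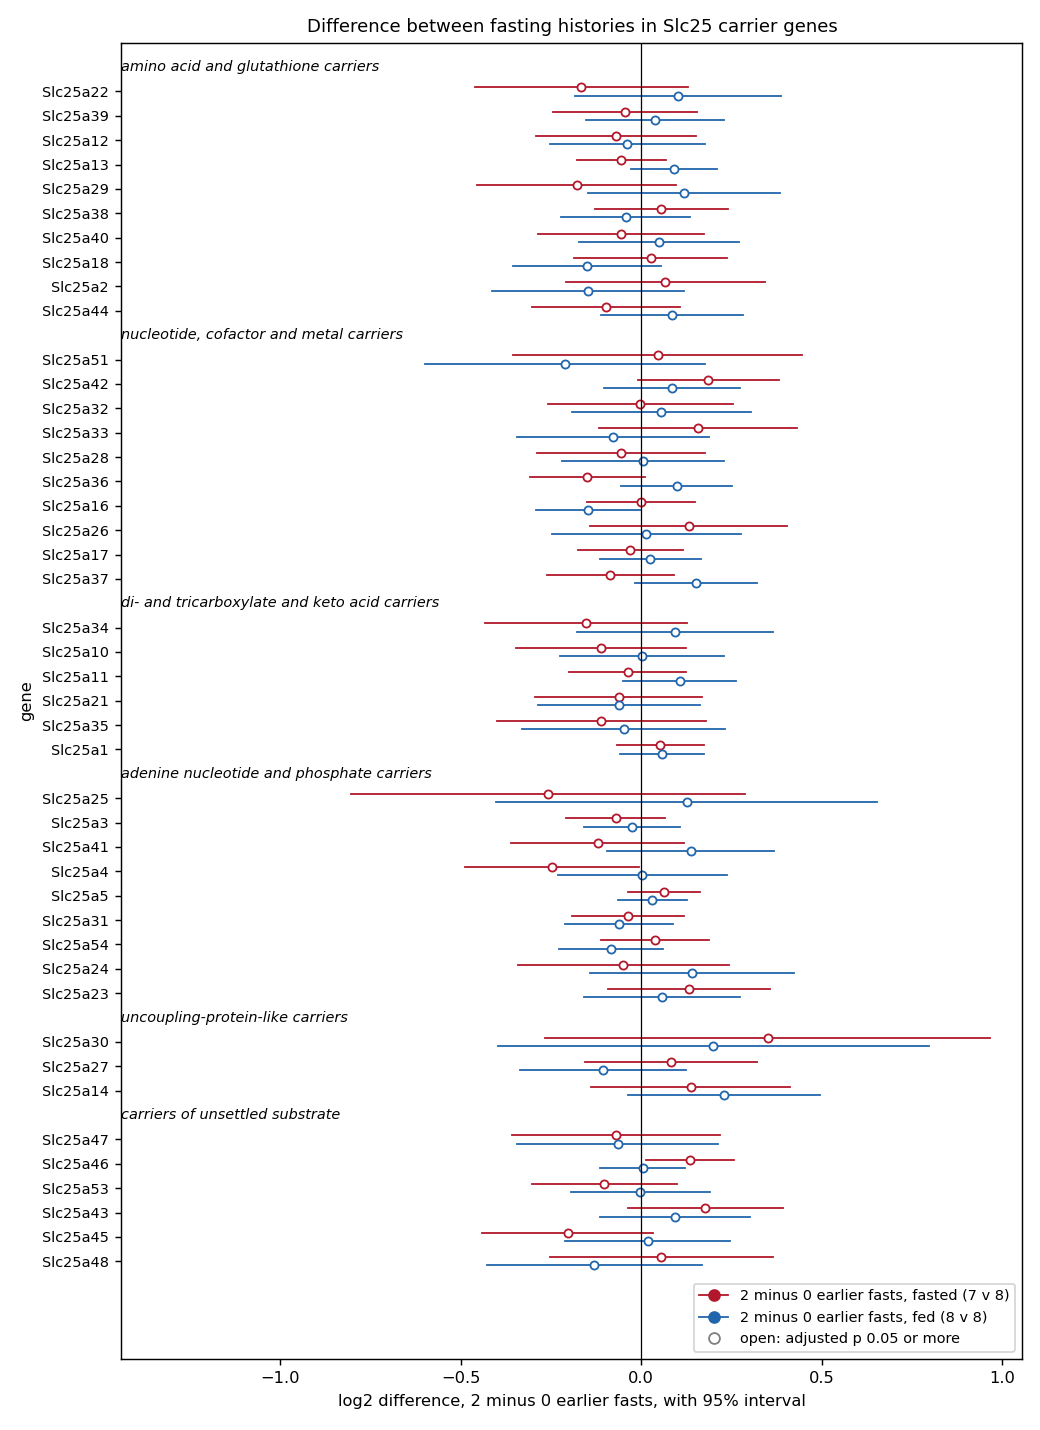
Log2 difference of each of the 44 carrier genes between mice with 2 and with 0 earlier fasts, with its 95% interval, in fasted mice (red, 7 against 8 arrays) and in fed mice (blue, 8 against 8). All points are open, since no member passed the adjusted threshold, and the largest difference is 0.35 in size.

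Enzymes and other mitochondrial proteins that work with the carriers, taken from lists, were counted next to them. Among 13 of 15 listed enzymes that work beside the carriers, 6 were higher and 4 lower in fasted livers with 0 earlier fasts, and 5 were higher and 5 lower with 2. Beside Acly, they included Pck1, the cytosolic step of gluconeogenesis, at 1.26 (SE 0.13, adjusted p = 8.94e-09) and 1.07 (SE 0.14, adjusted p = 5.44e-07). Got1, the cytosolic transaminase of the malate-aspartate shuttle, stood at 1.15 (SE 0.25, adjusted p = 0.000953) and 1.13 (SE 0.26, adjusted p = 0.00185). Me1, which makes NADPH from malate, stood at -0.80 (SE 0.17, adjusted p = 0.000835) and -0.69 (SE 0.18, adjusted p = 0.00585). Of 17 of 21 listed other mitochondrial transporters, 5 were higher and 3 lower with 0, and 3 were higher and 3 lower with 2 earlier fasts. Those called were 76.9% of the enzymes with either history, and 47.1% and then 35.3% of the transporters. Of all genes 12.5% were called with 0 and 11.6% with 2 earlier fasts, and of the brighter genes 23.8% and 22.2%.

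Abcb10, an inner membrane ABC transporter of heme-related metabolism, had the largest change among those transporters. Signals of Abcb10 in mice with 0 earlier fasts ran from 4.65 to 5.70 (median 5.36) in fasted mice, against 6.17 to 6.64 (median 6.47) in fed mice. Abcb10 after 2 earlier fasts ran from 5.26 to 5.78 (median 5.51) in fasted mice, against 6.16 to 6.78 (median 6.30) in fed mice. Fasted and fed livers were apart, at -1.17 (SE 0.12, adjusted p = 2.18e-09) and -0.93 (SE 0.12, adjusted p = 5.69e-07), the same direction as the iron carrier Slc25a37. The sideroflexin Sfxn2 was higher, at 0.62 and 0.73. Slc8b1, the sodium-calcium exchanger, was called with 0 earlier fasts at 0.45 and not with 2, at -0.10. The interaction was not called for Slc8b1 (adjusted p = 0.999 by limma). Its mean was 7.72 and 7.61 in fasted mice with 0 and 2 earlier fasts, and 7.27 and 7.71 in fed mice. Tspo, an outer membrane protein that binds cholesterol, was higher at 0.26 and 0.44.

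The listed carrier import machinery had 3 higher and 0 lower of 11 genes with 0 earlier fasts, and 5 higher and 0 lower with 2. These were 27.3% and 45.5% of the list, against 12.5% and 11.6% of all genes and 23.8% and 22.2% of the brighter genes. The outer membrane receptor Tomm20 was at 0.43 and 0.45, and the channel Tomm40 at 0.41 and 0.42, all 4 called. The intermembrane chaperones Timm8a1, at 0.38 and 0.56, and Timm9, at -0.09 and 0.36, were called with 2 earlier fasts and not with 0. The interaction was called for neither of them. Timm22 stood at -0.13 and -0.09, and Timm29 at -0.09 and -0.11. Neither these nor Timm10, Timm10b and Timm13 were called in either response. Among 4 of 5 carrier-fold proteins named outside the Slc25a pattern, only Mtch2 was called, and only with 2 earlier fasts (0.26 (SE 0.06, adjusted p = 0.00300)). Ucp1, the uncoupling protein of brown fat, was not called. Its signals in mice with 0 earlier fasts ran from 1.31 to 6.78 (median 1.44) in fasted mice, against 1.32 to 1.97 (median 1.58) in fed mice. The array of fasted replicate 4, which stood apart in adipocyte markers, held the high Ucp1 value. Ucp1 is itself 1 of the 5 adipocyte markers measured, so its value is part of that array's marker mean.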

How the data were processed

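Liver RNA, 100 ng per sample with a biotin label, was hybridized to Affymetrix whole-transcript arrays, per the labels' protocols. The deposited values are log2 signals that the authors made with RMA, per the submitters' processing notes, and no version of it is named there. Detection calls were not used here. Of 41345 probe sets, the platform annotation gave 23521 a single symbol, 1814 several and 16010 none. Single-symbol probe sets were reduced to 22180 genes, keeping the one with the highest mean. Slc25a35 also has a probe set shared with another gene, which was not used.

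All 31 arrays were fitted as 4 group means with limma 3.58.1 in R 4.3.3, with 2-sided tests and Benjamini-Hochberg adjustment over all genes at 0.05. The 5 comparisons were fasted against fed mice within each history, 2 against 0 earlier fasts within each state at sampling, and the interaction. Nothing in the labels states a batch, and each sample was read as 1 mouse. The number of arrays per group limits the precision. The fit was tested on artificial data with known changes in 200 genes. Of changes of 1.2-fold, 0% to 6.5% were recovered over the 5 comparisons. Of changes of 1.5-fold, 54.5% were recovered in the interaction and 81% to 87.5% in the other comparisons. Of 2-fold changes, 89% to 100% were recovered.

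The members, lists and tests were chosen with earlier results of these data known. Full values are given for the 20 called members of largest change, other members by their change, apart from Slc25a30, which was added for its spread after its values were seen. In the history comparisons the 3 members of smallest p are named, and per list of other genes up to 4 genes called in either response, by the larger change, with Ucp1 added for the array that stood apart. Alternatives were the mean of probe sets, only the groups compared, a variance trend, robust variances, array weights, cyclic loess, median centring, no dim genes, a replicate block and leaving out each array. Leaving out each array for single genes, and the comparison with brighter genes, were added after seeing the data. Figures used matplotlib 3.10.9 in Python 3.11.15.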

Additional observations from a re-analysis of the deposited data

Results flagged for a closer look

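In each group, single arrays that lay far from the rest by Dixon's test were looked for in the 26 members named with calls or smallest p values, over 4 groups each. Chance marks about 1 group in 20, and 7 were marked. Slc25a25 was 9.05 in fasted replicate 5 with 0 earlier fasts, against 7.09 to 8.01 in the other fasted mice. Slc25a12 was 6.90 in fed replicate 1 with 0 earlier fasts, against 6.15 to 6.47 in the others. Slc25a24 was 2.11 in fed replicate 7 with 0 earlier fasts, against 2.62 to 3.04. Slc25a4 was 3.50 in fed replicate 2 with 0 earlier fasts, against 2.68 to 3.02. Slc25a16 was 7.81 in fasted replicate 4 with 2 earlier fasts, against 8.15 to 8.28. Slc25a3 was 7.23 in fed replicate 3 with 2 earlier fasts, against 7.44 to 7.54. Slc25a27 was 2.19 in fed replicate 4 with 2 earlier fasts, against 2.71 to 3.00.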

How the results depend on the processing

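With 0 earlier fasts, 13 members were higher and 5 lower under every other setting of the fit, except 14 higher when dim genes were dropped. With 2 earlier fasts the number higher was 15 and ran from 12, with only the groups compared, to 17, without dim genes, and the number lower was 7, or 6 with a variance trend. Leaving out 1 array at a time gave 12 to 14 higher and 5 to 6 lower with 0 earlier fasts, and 12 to 17 higher and 5 to 7 lower with 2. The history comparisons and the interaction stayed at 0 throughout. With the replicate number as a block, 13 members were higher and 7 lower with 2 earlier fasts. Same-numbered arrays of different groups had deviations correlated at r of -0.0643 to 0.116 (45 pairs), with 3 over 0.1, and 7 of 31 arrays correlated best with their own number, so the numbers were not taken to pair the mice.

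For the log2 changes of single named members, 479 of 491 recomputations under these settings kept direction and call and none reversed. A reversal was not possible under the mean of probe sets, only the groups compared, a variance trend, robust variances or no dim genes. Each of those leaves a member's log2 change as it was, and only its adjusted p can move. Calls with 2 earlier fasts that were lost were Slc25a3 with only the groups compared (adjusted p = 0.0695) and cyclic loess (0.0810), Slc25a16 with only the groups compared (0.128), cyclic loess (0.0720), centring (0.0504) and the replicate block (0.0557), Slc25a24 with a trend (0.0556), Slc25a27 with only the groups compared (0.101), a trend (0.0556) and the block (0.0655), and Slc25a45 with only the groups compared (0.0638), all by limma. Slc25a25 was gained without dim genes (0.0376). The causes were not tested. Without detection calls, a dim member that was not called may be below background.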

Other observations

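In RefSeq's gene order, 4 pairs of members are adjacent protein-coding genes, and their responses were given separately above. Slc25a29 lies next to Slc25a47 on chromosome 12, Slc25a41 next to Slc25a23 on chromosome 17, Slc25a54 next to Slc25a24 on chromosome 3, and Slc25a43 next to Slc25a5 on chromosome X. In the first pair Slc25a47 was called in both responses and Slc25a29 in neither, and in the second Slc25a23 was called in both and Slc25a41 in neither.

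In 7 of the 12 members higher in both responses, the highest fasted liver with 0 earlier fasts was that of replicate 5. Its mean over the 12 was 7.89, against 7.44 to 7.66 on the other fasted arrays with 0 earlier fasts. Among fed mice with 0 earlier fasts, replicate 1 was highest in 6 of the 12, with a mean of 7.11, against 6.81 to 6.96 on the other fed arrays. Without fasted replicate 5 the log2 change with 0 earlier fasts was 1.29 for Slc25a22 and 1.03 for Slc25a47. It was 0.55 for Slc25a51 (adjusted p = 0.0375 by limma), and the counts of members called stayed at 13 higher and 5 lower.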
